A study of Mus musculus with 20 samples.

Results

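The cytosolic ribosomal protein genes were followed through mouse preimplantation development, from the oocyte to the blastocyst. A probe set, the group of short array probes that reports on one transcript, was taken as a member if it carried a single gene symbol of the Rpl or Rps series, including the stalk genes and Rpsa. Kinases named Rps6k and symbols of pseudogenes were left out. The rule found 100 of 22690 probe sets, for 48 genes on 17 chromosomes, 26 of the large ribosomal subunit and 22 of the small one. It uses names only, and a further 102 probe sets that pair a ribosomal protein symbol with other symbols were not members. Expression was measured on 20 MOE430A arrays in 5 groups of 4, named only by stage as Oocyte, 1-Cell, 2-Cell, 8-Cell and Blastocyst. In every group, total RNA went through 2 rounds of amplification by in vitro transcription before hybridization. The sources used here do not give strain, treatment, embryo numbers or the origin of the replicates, so the p-values reflect nothing beyond the spread among these arrays, and that spread may be technical. The number of arrays limits the precision.

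The large-subunit genes were Rpl4, Rpl6, Rpl7, Rpl7a, Rpl8, Rpl10a, Rpl11, Rpl12, Rpl13a, Rpl14, Rpl19, Rpl22, Rpl27, Rpl27a, Rpl35, Rpl37, Rpl37a, Rpl38, Rpl39, Rpl41, Rplp0 and Rplp2, with the paralogues Rpl3l, Rpl7l1, Rpl22l1 and Rpl39l. The small-subunit genes were Rps2, Rps3, Rps3a1, Rps4x, Rps6, Rps7, Rps9, Rps10, Rps14, Rps15, Rps18, Rps19, Rps20, Rps24, Rps25, Rps26, Rps27, Rps28, Rps29 and Rpsa, with the paralogues Rps4l and Rps27l. Of the 100 probe sets, 93 passed the filter on dim probe sets and were tested, and all 48 genes kept at least 1. The 7 that did not pass were extra probe sets of Rps18, Rps20, Rps4x, Rpsa and Rpl27a. Of the 93, 68 were above the filter on all 20 arrays and 6 on 8 or fewer. Rpl3l passed on 4 arrays, those of the 2-cell stage, and Rpl14 on 9, mostly 8-cell and blastocyst arrays, so both had to differ between stages. Each gene was represented by its brightest tested probe set, by mean log2 value. Of these 48 probe sets, 16 carry the suffix _x_at and 1 the suffix _s_at, which mark probes that other transcripts, such as processed pseudogenes, may share.

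Each ribosome holds a single copy of most of these proteins, which are built onto ribosomal RNA in the nucleolus and exported as subunits. In growing cells their mRNAs are among the most abundant, and in mammals most begin with a run of pyrimidines, the terminal oligopyrimidine (TOP) motif, through which Larp1 and the mTOR kinase control their translation together. A mouse oocyte stores ribosomes and mRNAs while it grows, becomes transcriptionally silent before ovulation, and transcription resumes mainly at the 2-cell stage.

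The start of the transcript carries the feature that ties these genes together in translational control, so the annotated starts of 6 members are shown. They were taken from RefSeq on build GRCm38.p6, where 42 of the 48 genes matched 50 promoter entries that run from 250 bases before to 50 bases after the start. Each stretch shown holds 50 bases before the annotated start and 15 bases from it, 5′ to 3′ on the gene's strand, so base 51 is the start. Capitals mark the pyrimidine run that begins at the start, or the motif CCGGAA on either strand, which is TTCCGG when read from the other strand. Rpl35, Rpl14, Rplp2 and Rps27 begin with such a run, and Rps27l and Rpl37 do not at these annotated starts. Members without a call at a step were found with such a start, as Rps6 and Rps27, and without one, as Rpl37.
Rpl35, chr2:39005117-39005181, minus strand: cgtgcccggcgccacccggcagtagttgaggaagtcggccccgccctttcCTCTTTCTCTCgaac
Rpl14, chr9:120571467-120571531, plus strand: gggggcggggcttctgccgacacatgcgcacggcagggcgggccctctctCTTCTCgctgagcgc
Rplp2, chr7:141447601-141447665, plus strand: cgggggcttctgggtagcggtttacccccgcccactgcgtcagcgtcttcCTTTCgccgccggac
Rps27, chr3:90213634-90213698, minus strand: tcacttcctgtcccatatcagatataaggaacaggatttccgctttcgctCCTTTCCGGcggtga
Rps27l, chr9:66946036-66946100, plus strand: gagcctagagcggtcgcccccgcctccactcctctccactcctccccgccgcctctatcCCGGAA
Rpl37, chr15:5116563-5116627, plus strand: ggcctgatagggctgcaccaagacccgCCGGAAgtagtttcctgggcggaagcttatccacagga

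The run at the start is 11 bases long in Rpl35, 7 in Rps27, where it overlaps TTCCGG, 6 in Rpl14 and 5 in Rplp2. A start with C followed by at least 4 of C or T was found in 8 of the 50 ribosomal protein entries (16%), against 823 of all 32851 entries of the table (2.51%). The 8 genes were Rpl14, Rpl35, Rpl38, Rplp2, Rps6, Rps10, Rps18 and Rps27. The search asks for the run at the annotated base itself, and a start annotated a few bases away gives no match. CCGGAA, searched on both strands over all 300 bases, occurred in 28 of the 50 entries (56.0%), against 14.9% of all entries. TATAAA, searched the same way, occurred in 6 of the 50 (12%), against 13.6% of all. These matches describe letters in a window and say nothing about a factor. Set against the array values, the 8 genes with a pyrimidine start had a median log2 change of -1.48 at the 1-cell stage over the oocyte (range -3.55 to -0.46), and the 34 other genes with an entry had -2.08 (range -4.27 to 0.70). No test was made of that difference.

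The deposited intensities had a median per array of 36.5 to 58.1 over all stages, and no pair of the 20 arrays held identical values. Markers of the oocyte, the 2-cell stage and the trophectoderm followed the labels, except that none of these lists separated oocyte from 1-cell arrays. The summed intensity of 8 oocyte probe sets was 30900 to 35580 in oocytes, 25440 to 32300 in 1-cell embryos and 184.1 to 248.5 in blastocysts. That of 4 markers of the 2-cell stage was 3657 to 6169 there and at most 191.3 elsewhere. Trophectoderm markers summed to 15960 to 19650 in blastocysts. Markers of the 8-cell stage and later summed to 3105 to 3557 at the 8-cell stage. Their sums at the 2-cell stage, 1652 to 1843, overlapped those in blastocysts, 1740 to 2503. Of the markers of other cells, the cumulus list (2 of 8 probe sets above the filter) summed to 105.3 to 285 and the sperm list (3 of 10) to 73.9 to 243.8 over all arrays. The oviduct and blood list (2 of 4) summed to 282.9 to 821.1 at the 2-cell stage, 103.7 to 3174 at the 8-cell stage and at most 165.1 elsewhere. Most of the highest sum came from the oviduct gene Ovgp1 on 8-cell array 2, at 3105. The middle probe set of 18S ribosomal RNA had mean intensities of 195.6 ± 57.6 in oocytes, 12670 ± 1880 in 1-cell, 638.7 ± 116 in 2-cell and 851.2 ± 243 in 8-cell embryos and 534.8 ± 142 in blastocysts (SD, n = 4 each). The part of these signals in the results was not tested. Embryos of different stages hold different numbers of cells and amounts of RNA, and in such bulk samples fewer cells of a type and less RNA per cell cannot be told apart.

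Across the stages the ribosomal protein mRNAs followed 1 main course: a trough in the 1-cell embryo, a return at the 2-cell stage to about the oocyte level, a peak at the 8-cell stage and a slightly lower level in the blastocyst. Of the 48 genes, 44 had their lowest stage mean at the 1-cell stage and 41 their highest at the 8-cell stage. The median intensity of the 93 tested probe sets on an array averaged 674.1 ± 54.2 in oocytes, 126 ± 16.6 in 1-cell, 792 ± 186 in 2-cell and 3206 ± 673 in 8-cell embryos and 2521 ± 371 in blastocysts (SD, n = 4 each). All 100 probe sets made up 1.93% ± 0.256 of the summed signal in oocytes, 0.473% ± 0.0411 in 1-cell, 2.30% ± 0.314 in 2-cell and 7.31% ± 0.997 in 8-cell embryos and 5.61% ± 0.546 in blastocysts. The 1-cell arrays lay below all others and the 8-cell and blastocyst arrays above all others, while oocyte and 2-cell arrays overlapped in the median, where the lowest 2-cell array stood at 628.5 and the highest oocyte array at 755.3. By the rank of stage means alone, few members had another course. Rpl14, Rpl22l1, Rps4l, Rps6 and Rps9 had their highest mean in the blastocyst, and Rpl3l and Rps27l at the 2-cell stage. Of the former, only Rps4l was called higher in the blastocyst than at the 8-cell stage. Rpl12 and Rps27l were lowest in the oocyte, Rpl37 at the 2-cell stage and Rpl3l in the blastocyst. Rpl12 had no call between oocyte and 1-cell stage, and Rpl3l lay under the filter in both oocytes and blastocysts.

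**Figure D1:**
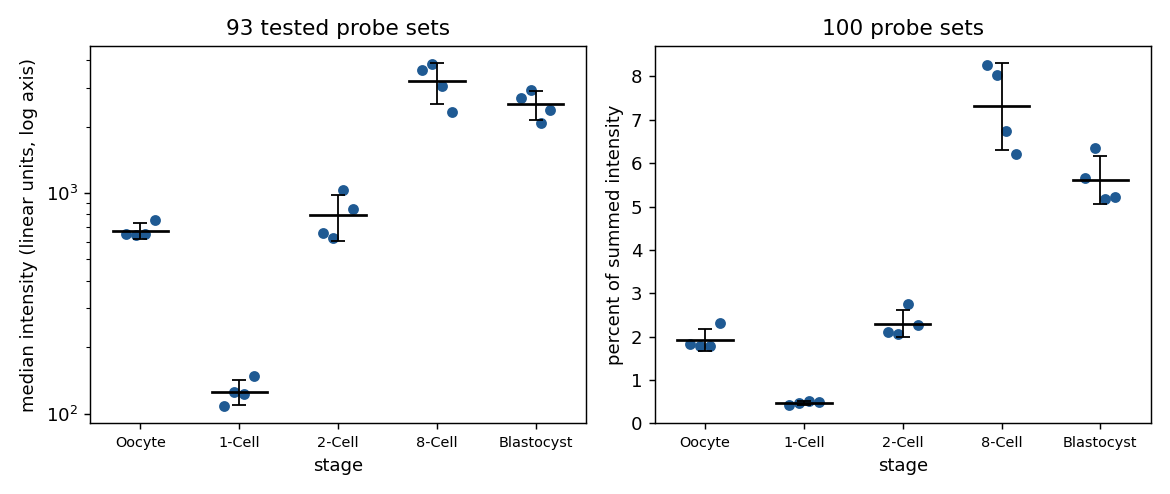
Median intensity of the tested ribosomal protein probe sets on each of the 20 arrays, by stage in developmental order (points are arrays, with the stage mean and SD, n = 4). The 1-cell arrays, with a mean of 126, lie below every other array, and the 8-cell arrays average 3206.

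**Figure D2:**
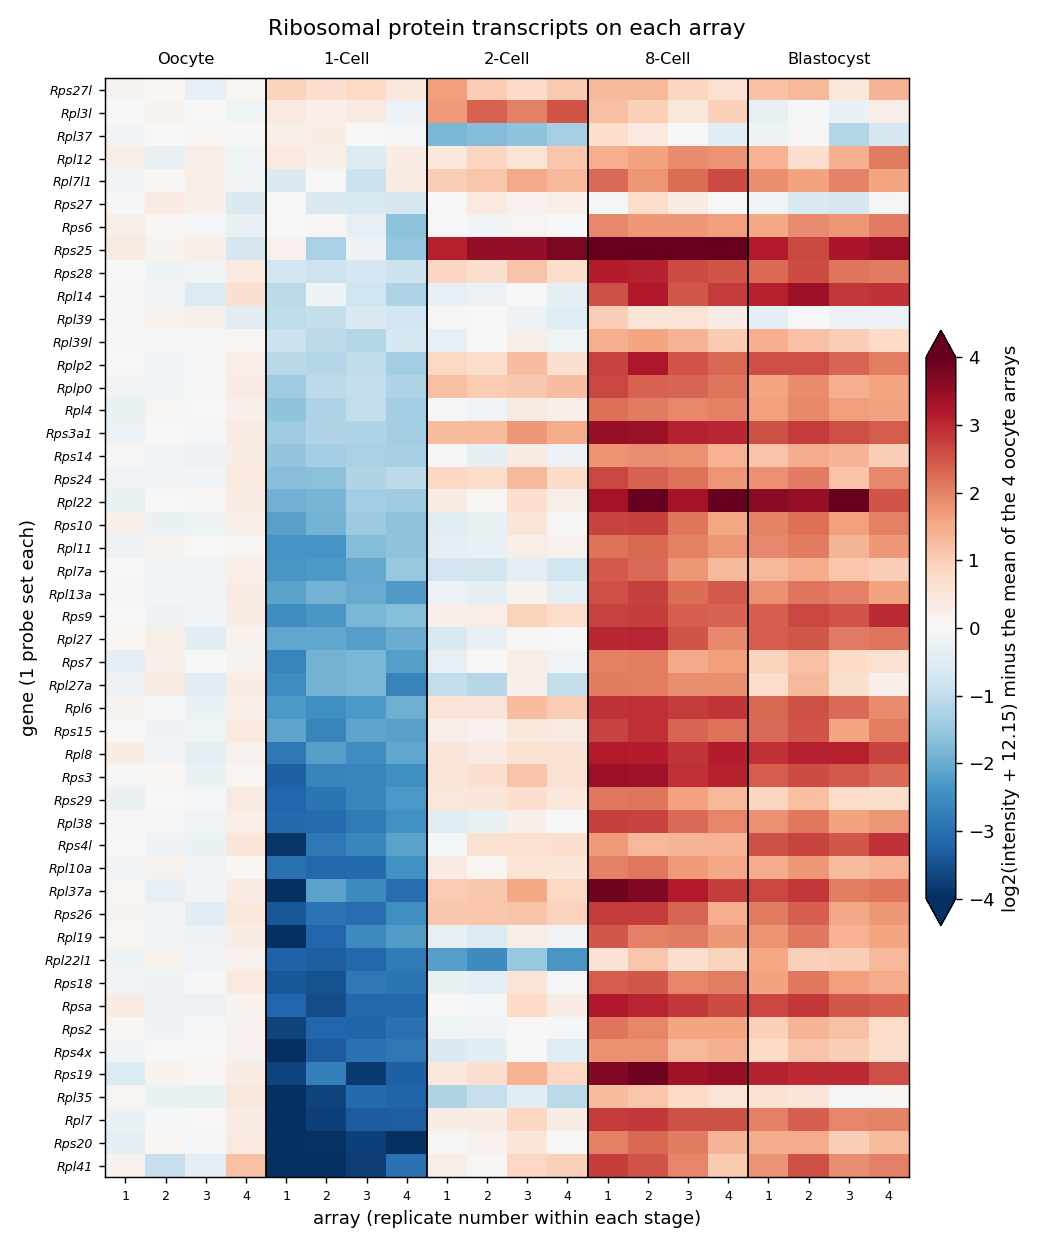
Log2 change of each of the 48 ribosomal protein genes from its own oocyte mean on every array, with arrays in developmental order from left to right and genes in rows (representative probe set, log2 of intensity + 12.15). Most rows are low in the 1-cell columns and high in the 8-cell and blastocyst columns, and Rps27l, Rpl37, Rpl3l and Rpl12 differ.

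Within a stage the members varied moderately. The median coefficient of variation over the 48 genes was 17.3% in oocytes, 24.7% in 1-cell, 19.5% in 2-cell and 19.5% in 8-cell embryos and 17.1% in blastocysts. Single arrays were highest or lowest for many genes at once. Among the oocyte arrays, array 4 was highest for 32 of the 48 genes. Among the 2-cell arrays, array 3 was highest for 38, and among the blastocyst arrays, array 2 for 32. Of the 8-cell arrays, array 2 was highest for 25 genes and array 4 lowest for 29. With 8-cell array 2 left out, which also carried the oviduct signal, 79 probe sets were called higher at the 8-cell than at the 2-cell stage and 2 lower, with a median change of 1.76, and 34 were called lower in the blastocyst than at the 8-cell stage. The values with all arrays stand with those comparisons.

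The comparison of 1-cell embryos with oocytes spans fertilization and comes before most embryonic transcription. The labels do not give the maturation state of the oocytes, so the step may also span meiotic maturation. Of the 93 probe sets, 70 fell (75.3%) and 4 rose in limma's two-sided moderated test (Benjamini-Hochberg adjusted p under 0.05 over all 17208 probe sets tested). Of all probe sets 15.3% were lower and 16% higher. The median log2 change of the members was -1.79, against 0.11 over all probe sets tested, and 63 fell at least 2-fold. The 4 values of both stages lay apart in 66 lower and 4 higher probe sets, where 14.9% and 16.4% of all probe sets did. Per gene, 40 of 48 fell, 22 of 26 in the large and 18 of 22 in the small subunit, with medians of -2.06 and -2.20, against 16.6% lower over all 10257 genes. Changes are differences of log2(intensity + 12.15), which understate the change of dim probe sets, and errors of changes are standard errors (SE, 4 arrays per stage).

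Beyond Rps20, a protein of the small-subunit head, and Rpl41, a very short basic peptide of the large subunit, deep falls occurred in both subunits. The same 1-cell arrays carried the high 18S ribosomal RNA signal. Rpl7, a large-subunit protein, had 1-cell intensities of 48.9, 71.0, 97.2 and 101, against 902, 1064, 1106 and 1350.2 in oocytes, and fell by 3.64 ± 0.19 (adjusted p = 2.79e-14). For Rpl35, which lies at the exit of the peptide tunnel, the 1-cell values were 164, 237, 359.8 and 341, against 3471, 2665, 2640 and 4387 in oocytes, and it fell by 3.55 ± 0.23 (adjusted p = 2.19e-12). Every 1-cell value of both genes lay below every oocyte value. Rps19, a protein of the small-subunit head whose gene is mutated in human Diamond-Blackfan anaemia, had 4.3, 19.5, 2.8 and 9.8 at the 1-cell stage, against 133, 222, 213 and 245 in oocytes, and fell by 3.37 ± 0.23 (adjusted p = 5.91e-12). All 4 of its 1-cell values lay under the filter of 32.9, and with values under the filter raised to it, an alternative chosen after the data were seen, the fall was at least 2.23 on the log2 scale. Rps20 fell by 4.04 ± 0.20 and Rpl41 fell by 4.27 ± 0.44. The representative probe sets of Rpl7, Rpl35, Rps20 and Rpl41 are of the kind that other transcripts may share, that of Rps19 is not. Not every tested probe set was called lower: 2 of 3 were for Rps20, 2 of 4 for Rpl41 and 5 of 6 for Rpl35. The highest changes were -0.69, -0.04 and 0.30 in that order.

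Rps27l, a paralogue of Rps27 that is a p53 target, was the 1 gene that rose. Its 1-cell intensities were 1241, 1065, 1151 and 898, against 734, 692, 524 and 721 in oocytes, with no overlap. It rose by 0.70 ± 0.21 (adjusted p = 0.0127), and all 3 of its probe sets were called higher. The call ended without oocyte array 3 (0.59, adjusted p = 0.0561), and the direction turned under scaling to the added hybridization controls (-0.30). The 7 genes without a call at this step were Rpl3l, Rpl7l1, Rpl12, Rpl37, Rps6, Rps25 and Rps27. Rpl37, a zinc-binding protein of the large subunit, had 1-cell values of 828, 872, 709 and 665, against 649, 705, 748 and 736 in oocytes (0.11 ± 0.23, adjusted p = 0.78). Rps6, the substrate of the S6 kinases, had 52.5, 54.6, 39.3 and 8.5 at the 1-cell stage, against 63.7, 56.0, 50.4 and 42.1 in oocytes (-0.48 ± 0.26, adjusted p = 0.166). For both genes the values of the stages overlapped. Under scaling to the hybridization controls Rps6, Rps27 and Rpl7l1 were called lower (-1.31, -1.36 and -1.17). Of the 76 probe sets with an oocyte mean of at least 100, 66 fell and 4 rose, and of the 17 dimmer ones 4 fell. The split uses the oocyte values of the same comparison, and dim probe sets had little room to fall. These counts therefore cannot show whether bright and dim members behaved differently.

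The next comparison, of 2-cell with 1-cell embryos, spans the main activation of the embryonic genome. Here 79 of the 93 probe sets rose (84.9%) and 2 fell, where 23.2% of all probe sets were higher and 21.5% lower. The median change was 2.25, against -0.04 over all probe sets, and 73 rose at least 2-fold. The values of both stages lay apart in 78 higher and 2 lower probe sets (21.2% and 19.9% of all). Per gene, 44 of 48 rose, 24 of 26 in the large and 20 of 22 in the small subunit. The median of the small-subunit genes was 2.84 and that of the large-subunit genes 1.95, a difference that was not tested. In the 2-cell embryos 5 of the 48 genes had a mean under 100 and 28 a mean of at least 1000, and in the 1-cell embryos these counts were 20 and 1.

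Rps25, a small-subunit protein that several viral internal ribosome entry sites need, had 2-cell intensities of 429, 568, 572 and 686, against 45.1, 8.7, 32.2 and 5.4 at the 1-cell stage, and rose by 4.19 ± 0.29 (adjusted p = 1.54e-12). Rpl37a, a zinc-binding protein of the large subunit, had 1107, 1148, 1614 and 971 at the 2-cell stage, against 20.4, 112, 84.5 and 54.6 at the 1-cell stage, and rose by 4.07 ± 0.29 (adjusted p = 4.24e-12). Neither gene showed any overlap between the stages. Rps19 rose by 4.19 ± 0.23 (at least 3.04 with its 1-cell values raised to the filter). Rps20 rose by 4.22 ± 0.20 and Rpl41 rose by 4.79 ± 0.44. Of the 3 tested Rps20 probe sets, 2 were called higher at this step, with changes over all 3 from 0.26 to 4.22. This comparison and the one before it share the 1-cell arrays. The gene that fell was Rpl37, with 191, 203, 226 and 274 at the 2-cell stage, against 828, 872, 709 and 665 at the 1-cell stage (change -1.73 ± 0.23, adjusted p = 3.17e-07). Its highest 2-cell value lay below its lowest 1-cell value. Rpl14 (0.60 ± 0.26, adjusted p = 0.061), Rps6 (0.47 ± 0.26, adjusted p = 0.146) and Rps27l (0.43 ± 0.21, adjusted p = 0.105) did not pass the test.

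From this level the 8-cell embryos went well above the oocyte. Relative to the 2-cell stage, 81 of the 93 probe sets rose (87.1%) and 1 fell, where 23.2% of all probe sets were higher and 25.2% lower. The median change was 1.82, against 0.06 over all probe sets, and the values lay apart in 80 higher and 1 lower (20.6% and 22.1% of all). Per gene, 45 of 48 rose, 25 of 26 in the large subunit (median 2.09) and 20 of 22 in the small (median 1.85). Of the 48 genes, 36 had an 8-cell mean of at least 1000 and 1 a mean under 100. With quantile normalization the members' median change was 1.19. It was 1.22 when arrays were scaled to the hybridization controls, where that of all probe sets was -0.41.

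Rpl22, an RNA-binding protein of the large subunit known for its part in T-cell development in mice, had 8-cell intensities of 3028, 5037, 3051 and 5027, against 358, 310.3, 475 and 346 at the 2-cell stage, and rose by 3.37 ± 0.24 (adjusted p = 5.18e-12). The other tested Rpl22 probe set changed by 0.36 at this step, without a call. Rpl14, which had no call at the 2-cell stage, had 201, 319.5, 190.2 and 243 at the 8-cell stage, against 16.7, 18.8, 23.8 and 16.1 at the 2-cell stage, and rose by 2.99 ± 0.26 (adjusted p = 1.34e-10). The stages did not overlap in either gene, and Rpl14 was below the filter of 32.9 on every 2-cell array, so that its rise was at least 2.45 with those values raised to the filter. Rpl14 passed the filter mostly through 8-cell and blastocyst arrays, so a difference from dimmer stages was built in for it too. Rpl22l1 rose by 2.96 ± 0.20, Rpl27 rose by 2.83 ± 0.21 and Rps19 rose by 2.79 ± 0.23. The 1 gene called lower was Rpl3l, the striated-muscle paralogue of Rpl3, with 25.3, 19.5, 10.4 and 19.6 at the 8-cell stage, against 41.4, 72.3, 53.5 and 82.0 at the 2-cell stage (change -1.26 ± 0.26). Rpl3l passed the filter through its 2-cell arrays alone, so a difference from that stage was built in and its call cannot test it. Its 8-cell values lay under the filter, and with them raised to it the change was -0.69. Rps27 (0.02 ± 0.23, adjusted p = 0.955) and Rps27l (-0.10 ± 0.21, adjusted p = 0.721) had changes near 0. Rps27 changed sign without 2-cell array 1 (-0.05) or 8-cell arrays 2 (-0.15) or 3 (-0.01), and Rps27l without 2-cell array 1 (0.08) or 8-cell array 4 (0.04), none of them called.

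In the blastocyst, where the first epithelium and the inner cell mass have formed, ribosomal protein mRNAs were slightly lower than at the 8-cell stage on the deposited scale. Of the 93 probe sets, 47 fell (50.5%) and 3 rose, where 25.5% of all probe sets were lower and 19.5% higher. The median change was small, -0.55, against -0.21 over all probe sets, and 3 fell at least 2-fold. The 4 values of both stages lay apart in 28 lower and 2 higher probe sets, where 20% and 17.3% of all probe sets did. This step depended on how the arrays were scaled. The calls were 3 higher and 12 lower under quantile normalization, 3 higher and 22 lower when each array was centred on its median, and 35 higher and 1 lower under scaling to the hybridization controls. The mean log2 signal of those controls was 9.19 ± 0.239 in blastocysts and 10.32 ± 0.278 at the 8-cell stage (SD, n = 4 each). Relative to the median of all probe sets under that scaling, 0.68, the members' median of 0.53 was 0.15 lower. The ratio of 3′ to 5′ signal of beta-actin, a sign of RNA length, was 1.99 ± 0.324 in blastocysts and 3.67 ± 0.235 at the 8-cell stage. The same ratio for Gapdh went the other way, at 5.805 ± 1.96 in blastocysts and 1.28 ± 0.467 at the 8-cell stage. At the earlier stages the beta-actin ratio was 4.74 ± 0.367 in oocytes, 4.245 ± 1.2 in 1-cell and 4.63 ± 0.621 in 2-cell embryos. That of Gapdh was 4.70 ± 1.26, 4.76 ± 1.08 and 5.43 ± 0.603 in the same order. The comparisons of the 8-cell with the 2-cell stage and of the blastocyst with the oocyte thus crossed such differences too. The part of these ratios in the results was not tested.

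Per gene, 25 of 48 fell, 12 of 26 in the large and 13 of 22 in the small subunit. Rpl27a had blastocyst intensities of 200.4, 303, 189 and 136, against 531, 509, 451 and 449 at the 8-cell stage, and fell by 1.23 ± 0.27 (adjusted p = 0.000709). Rps25 had 445, 309, 481 and 540.2 in blastocysts, against 1014, 1085, 856 and 1035 at the 8-cell stage, and fell by 1.17 ± 0.29 (adjusted p = 0.0018). In both genes the stages did not overlap. Rps7, a small-subunit protein that binds the p53 regulator Mdm2, fell by 0.94 ± 0.19, and Rps29, a zinc-binding protein, fell by 0.93 ± 0.20. Rpl3l was also called lower, but its values lay under the filter at both stages, so no size is given for it. Under scaling to the hybridization controls none of these 5 genes was called, with changes of -0.15 for Rpl27a, -0.06 for Rps25 and 0.19 each for Rps7 and Rps29. Rps7 and Rps29 also lost the call under quantile normalization. Rps4l, a paralogue of Rps4x, was the 1 gene that rose. Its blastocyst values were 1610.2, 1789.6, 1542 and 2043, against 897, 686, 699 and 727 at the 8-cell stage, all of them higher, and it rose by 1.20 ± 0.25 (adjusted p = 0.000377).

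Set against the oocyte, the 2-cell embryo had higher levels for more members than it had lower ones. Of the 93 probe sets, 37 were higher (39.8%) and 10 lower, where 24.1% of all probe sets were higher and 20.8% lower, and the median change was 0.31, against 0.07. The values lay apart in 32 higher and 8 lower probe sets (23.3% and 20.2% of all). Under scaling to the hybridization controls the calls were 11 higher and 36 lower, with a median of -0.45, beside -0.59 over all probe sets. Per gene, 18 of 48 rose and 5 fell. In the small subunit 10 of 22 rose, and in the large subunit 8 of 26 rose and 5 fell, a contrast that was not tested. Rps25 was far above its oocyte level, with 429, 568, 572 and 686 in 2-cell embryos, against 53.3, 44.0, 48.1 and 19.0 in oocytes, and rose by 3.47 ± 0.29 (adjusted p = 8.9e-11). Rps3a1 rose by 1.44 ± 0.16, Rpl3l rose by 2.15 ± 0.26 (at least 0.69 with its oocyte values raised to the filter), Rpl7l1 rose by 1.23 ± 0.22 and Rps27l rose by 1.13 ± 0.21, the last pair without a call under scaling to the hybridization controls (0.48 and 0.34). Because Rpl3l passed the filter through its 2-cell arrays alone, its difference from oocytes was built in. The 5 genes below the oocyte were Rpl22l1, Rpl37, Rpl35, Rpl27a and Rpl7a.

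Rpl22l1 had 2-cell values of 85.4, 66.6, 143 and 77.2, against 381, 482, 395 and 495 in oocytes, and fell by 2.14 ± 0.20 (adjusted p = 9.05e-10). Rpl37 had 191, 203, 226 and 274 in 2-cell embryos, against 649, 705, 748 and 736 in oocytes, and fell by 1.62 ± 0.23 (adjusted p = 9.86e-07). Both genes were lower in every 2-cell array than in any oocyte array. Rpl35 fell by 0.91 ± 0.23 and Rpl7a fell by 0.67 ± 0.21. Of the 6 tested Rpl35 probe sets, 4 were called lower. Rpl27a fell by 0.71 ± 0.27, a call that ended without any of oocyte arrays 2 and 4 or 2-cell arrays 1, 2 and 4 (adjusted p from 0.0954 to 0.124).

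Blastocysts held higher levels than oocytes for nearly all members. Of the 93 probe sets, 79 rose (84.9%) and 0 fell at an adjusted p under 0.05 in limma's test, with 1 lower at an unadjusted p under 0.05, where 28.5% of all probe sets were higher and 30.7% lower. Their median change was 1.74, against -0.12 over all probe sets, and 74 rose at least 2-fold. The values lay apart in 78 higher probe sets, where 26.7% of all lay apart in that direction and 27.8% in the other. Per gene, 43 of 48 rose, 22 of 26 in the large and 21 of 22 in the small subunit. Rpl22 had blastocyst intensities of 3719, 3405, 4952 and 1731, against 232, 289, 299.5 and 358 in oocytes, and rose by 3.42 ± 0.24 (adjusted p = 1.7e-12). The other tested Rpl22 probe set rose by 1.12. Rpl8, which lies near the peptidyl transferase centre, had 5066, 5680.1, 5829 and 4417 in blastocysts, against 826, 619, 507 and 753 in oocytes, and rose by 2.95 ± 0.17 (adjusted p = 3.2e-14). Every blastocyst value of both genes exceeded every oocyte value. Rps25 rose by 3.13 ± 0.29, Rpl14 rose by 3.07 ± 0.26 and Rps19 rose by 2.91 ± 0.23. The 5 genes without a call were Rpl35 (0.27 ± 0.23, adjusted p = 0.327), Rpl3l (under the filter at both stages), Rpl39 (-0.20 ± 0.19, adjusted p = 0.382), Rps27 (-0.35 ± 0.23, adjusted p = 0.2) and Rpl37 (-0.49 ± 0.23, adjusted p = 0.0633). Rps27 was called lower without oocyte array 4 (-0.55, adjusted p = 0.048).

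**Figure D3:**
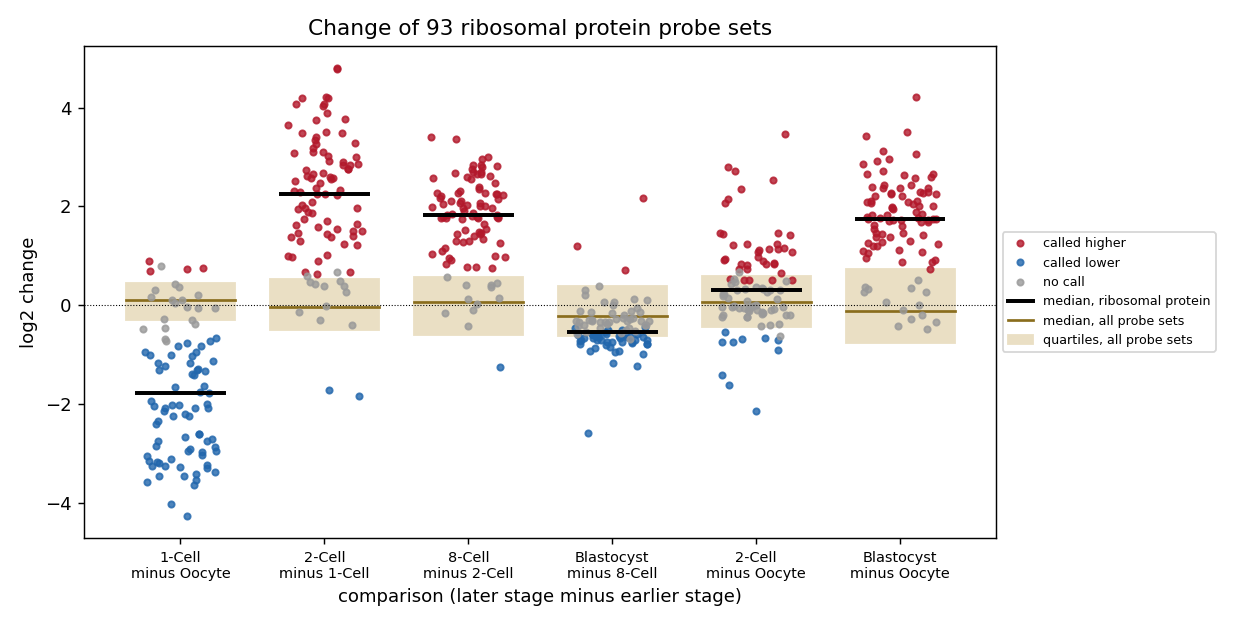
Log2 change of the 93 tested ribosomal protein probe sets in each of the 6 comparisons (1 point per probe set, later minus earlier stage). The median and quartiles of all probe sets tested are drawn beside them. The points lie mostly below 0 for the 1-cell stage over the oocyte (median -1.79). They lie mostly above 0 for the 2-cell over the 1-cell stage (2.25), the 8-cell over the 2-cell stage (1.82) and the blastocyst over the oocyte (1.74).

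Of the members with a well-known place in the working ribosome, Rplp0, Rplp2, Rpsa, Rps3 and Rpl11 followed the main course. Rplp0, the base of the stalk that recruits elongation factors, had oocyte values of 1489.9, 1522, 1552 and 2043, 1-cell values of 600.2, 787, 838 and 683, 2-cell values of 3785, 3320, 3466 and 3838, 8-cell values of 10463, 8489.8, 8317 and 7243 and blastocyst values of 4932, 6056, 4506 and 4965. It fell by 1.17 ± 0.16 at the 1-cell stage relative to the oocyte, rose by 2.30 ± 0.16 at the 2-cell relative to the 1-cell stage and rose by 1.25 ± 0.16 at the 8-cell relative to the 2-cell stage. The last rise had no call under quantile normalization (0.22, adjusted p = 0.175) or under scaling to the hybridization controls (0.65, adjusted p = 0.0534). Rplp2, a stalk protein bound to Rplp0, had mean intensities of 1080 ± 144 in oocytes, 474 ± 50.6 in 1-cell, 1975 ± 385 in 2-cell and 7221 ± 2160 in 8-cell embryos and 5694 ± 957 in blastocysts (SD, n = 4 each). It fell by 1.16 ± 0.18, rose by 2.02 ± 0.18 and rose by 1.84 ± 0.18 at the first 3 steps. Both stalk genes passed the test at each of these steps.

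Rpsa, a small-subunit protein also known as the laminin receptor, had oocyte values of 1211, 844, 816 and 1059, 1-cell values of 97.9, 72.3, 98.1 and 100.3, 2-cell values of 955, 942, 1685 and 1193, 8-cell values of 8992, 8086, 6907 and 6001 and blastocyst values of 6198, 7022, 5482 and 5174. The 1-cell values were the lowest of all 20, and Rpsa fell by 3.24 ± 0.19 (adjusted p = 2.04e-13). Rps3, which lines the mRNA entry channel, had mean intensities of 1402 ± 160 in oocytes, 201 ± 46.5 in 1-cell, 2350 ± 495 in 2-cell and 13050 ± 2180 in 8-cell embryos and 7604 ± 773 in blastocysts, and fell by 2.75 ± 0.18 at the 1-cell stage. Rpl11, which joins the large subunit with 5S ribosomal RNA and can bind Mdm2, had mean intensities of 711 ± 80.6 in oocytes, 171 ± 50 in 1-cell, 686 ± 152 in 2-cell and 3035 ± 485 in 8-cell embryos and 2481 ± 496 in blastocysts, and fell by 2.02 ± 0.20 at the 1-cell stage. All 3 rose at the 2-cell and again at the 8-cell stage, Rpl11 by 1.95 ± 0.20 and 2.14 ± 0.20. Rps6 differed in that its 1-cell and 2-cell changes had no call: it had mean intensities of 53.1 ± 9.11 in oocytes, 38.7 ± 21.3 in 1-cell, 52.2 ± 4.07 in 2-cell and 208 ± 16.8 in 8-cell embryos and 219 ± 33.6 in blastocysts. It rose by 1.78 ± 0.26 at the 8-cell relative to the 2-cell stage (adjusted p = 1.57e-06). Its other tested probe set had no call in any comparison. That probe set changed by 0.45 at the 8-cell relative to the 2-cell stage and by 0.06 in blastocysts relative to oocytes.

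Another 14 members, Rpl4, Rpl6, Rpl10a, Rpl19, Rpl38, Rps2, Rps9, Rps10, Rps14, Rps15, Rps18, Rps24, Rps26 and Rps28, all fell in 1-cell embryos and rose in 2-cell and again in 8-cell embryos. A few are given here, chosen after their values were seen and for their known roles. Rpl38, which in mice is needed for the translation of certain Hox mRNAs, had oocyte values of 1315, 1300.4, 1251 and 1638, 1-cell values of 147, 150.3, 184 and 247, 2-cell values of 1014, 1115, 1588 and 1348, 8-cell values of 9115, 9071, 6685 and 5352 and blastocyst values of 4867, 5959, 4179 and 4656. It fell by 2.86 ± 0.19 at the 1-cell stage over the oocyte, rose by 2.73 ± 0.19 at the 2-cell over the 1-cell stage and rose by 2.55 ± 0.19 at the 8-cell over the 2-cell stage. Its 1-cell values were the lowest and its 8-cell values the highest of the 5 stages by mean. Rps26, a small-subunit protein near the mRNA exit, had oocyte values of 1168, 957, 798 and 1428, 1-cell values of 90.1, 126, 117 and 185, 2-cell values of 2252, 2324, 2363 and 2029, 8-cell values of 7408, 7466, 5416 and 2919 and blastocyst values of 4502, 5664, 3144 and 3595. The 2-cell values already exceeded all oocyte values, and Rps26 rose by 1.07 ± 0.25 at the 2-cell stage over the oocyte (adjusted p = 0.000733). Rps24, 1 of the genes mutated in human Diamond-Blackfan anaemia, had mean intensities of 701 ± 145 in oocytes, 258 ± 60.3 in 1-cell, 1320 ± 263 in 2-cell and 3423 ± 890 in 8-cell embryos and 2405 ± 609 in blastocysts (SD, n = 4 each). Rpl10a, which contacts transfer RNA at the exit site, had mean intensities of 1587 ± 172 in oocytes, 202 ± 55.2 in 1-cell, 2045 ± 290 in 2-cell and 5794 ± 1080 in 8-cell embryos and 4421 ± 604 in blastocysts. Rps9, which bears on decoding accuracy in yeast, had mean intensities of 340.1 ± 56.2 in oocytes, 72.6 ± 22.1 in 1-cell, 504 ± 121 in 2-cell and 2050 ± 309 in 8-cell embryos and 2198 ± 414 in blastocysts and was 1 of the 5 members with the highest mean in the blastocyst, without a call over the 8-cell stage (0.09 ± 0.20, adjusted p = 0.72). Rpl12, a large-subunit protein at the base of the stalk, was among the dim members, with mean intensities of 59.7 ± 14.2 in oocytes, 66.2 ± 19.2 in 1-cell, 108 ± 27 in 2-cell and 218 ± 31.3 in 8-cell embryos and 184 ± 75.6 in blastocysts. Its 1-cell values overlapped the oocyte values (0.11 ± 0.25, adjusted p = 0.803), and it rose by 1.38 ± 0.25 in blastocysts over oocytes (adjusted p = 2.72e-05).

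Paralogues, gene copies that resemble the gene of a core ribosomal protein, did not all follow the main course. Of the 6 on the array, 3 fell and 1 rose at the 1-cell stage, 5 rose at the 2-cell stage, 4 rose and 1 fell at the 8-cell stage, and 1 rose and 1 fell in the blastocyst. The paralogue that fell at the 8-cell stage and in the blastocyst was Rpl3l, also among the 2-cell rises. It passed the filter through its 2-cell arrays alone, so its calls at the 2-cell and 8-cell stages were built in. Its 8-cell and blastocyst values all lay under the filter. Over all genes the shares that rose and fell were 15.2% and 16.6% in 1-cell embryos, 22% and 22.7% in 2-cell embryos, 22.2% and 25.7% in 8-cell embryos and 20% and 26.4% in blastocysts, each over the stage before. With arrays scaled to the hybridization controls the 8-cell rises of Rpl7l1 (0.41, adjusted p = 0.331) and Rps4l (0.39, adjusted p = 0.352) were not called. For 5 of them the gene they resemble was also a member, and the change of each paralogue was compared with that of its counterpart array by array. Over these 5 pairs and 6 comparisons, 17 of 30 exact two-sided permutation tests reached the smallest p that 4 against 4 arrays allow, 0.0286, with an adjusted p of 0.0504, so none passed after Benjamini-Hochberg adjustment over the 30. With a pseudocount of 48.6, 19 passed (adjusted p = 0.0452).

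The brighter probe set of Rpl7l1 had no call where Rpl7 fell, with 1-cell values of 70.7, 111, 56.0 and 143, against 96.8, 117, 134 and 100 in oocytes (-0.27 ± 0.22, adjusted p = 0.388). The other Rpl7l1 probe set had means of 22.3 in 1-cell embryos and 57.8 in oocytes, and fell by 1.02 ± 0.21 (adjusted p = 0.000369). The change of the brighter one exceeded that of Rpl7 by 3.36 ± 0.33 on the log2 scale (exact permutation p = 0.0286), and over the 6 probe-set pairs the difference ran from 1.01 to 3.36. At the 2-cell stage the change of Rpl7l1 minus that of Rpl7 was -2.56 ± 0.30, although with other probe sets of the pair this difference ran from -2.56 to 0.11. Rps4l and Rps4x moved in opposite directions from the 8-cell stage to the blastocyst on the deposited scale. Their pair test did not pass after adjustment (exact permutation test, adjusted p = 0.0504). Rps4l had oocyte values of 269.6, 229, 221 and 375, 1-cell values of 6.7, 26.4, 33.5 and 51.4, 2-cell values of 260, 417, 416 and 429, 8-cell values of 897, 686, 699 and 727 and blastocyst values of 1610.2, 1789.6, 1542 and 2043. Rps4x had oocyte values of 3011, 3383, 3373 and 3865, 1-cell values of 203, 327, 419 and 455, 2-cell values of 2278, 2481, 3414 and 2426, 8-cell values of 12054, 12102, 8508 and 9199 and blastocyst values of 5964, 7444, 6657 and 5539. In the blastocyst relative to the 8-cell stage Rps4l rose while Rps4x fell by 0.70 ± 0.20, and the difference in change was 1.90 ± 0.19 (exact permutation p = 0.0286). The Rps4x fall was not called under quantile normalization (-0.06, adjusted p = 0.797) or centring on the array median (-0.57, adjusted p = 0.0542), and it changed sign under scaling to the hybridization controls (0.43). Over the oocyte the blastocyst difference was 1.74 ± 0.20 at the same p.

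Rpl39l, a paralogue of Rpl39 with a role in the mouse testis, rose in blastocysts over oocytes, where Rpl39 had no call. The difference in change was -0.11 ± 0.24 at the 1-cell stage (exact permutation p = 0.686), 0.69 ± 0.21 at the 8-cell relative to the 2-cell stage (p = 0.0286) and 1.30 ± 0.25 in the blastocyst relative to the oocyte (p = 0.0286). Rpl39l had mean intensities of 1122 ± 67.8 in oocytes, 579 ± 81.4 in 1-cell, 1081 ± 179 in 2-cell and 2927 ± 439 in 8-cell embryos and 2447 ± 468 in blastocysts (SD, n = 4 each). In blastocysts relative to oocytes it rose by 1.10 ± 0.16 (adjusted p = 1.4e-06). The Rps27l change exceeded that of Rps27 by 1.15 ± 0.29 at the 1-cell stage and by 1.43 ± 0.32 in blastocysts over oocytes (exact permutation p = 0.0286 for each), with the same sign in all 3 probe-set pairs. Rps27 had oocyte values of 111, 137, 124 and 67.4, 1-cell values of 108, 67.8, 65.9 and 62.5, 2-cell values of 109, 145, 123 and 132, 8-cell values of 99.1, 187, 136 and 106 and blastocyst values of 92.0, 67.2, 61.6 and 109.7. These were dim values that overlapped between most stages. Its call at the 2-cell over the 1-cell stage ended without 1-cell array 4 (adjusted p = 0.0536) or 2-cell array 2 (0.0548), and that in the blastocyst over the 8-cell stage without 8-cell arrays 2 (0.156) or 3 (0.0783) or blastocyst arrays 2 (0.102) or 3 (0.126). At the 1-cell stage it was called lower without oocyte array 4 (-0.65, adjusted p = 0.0405).

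The comparison of Rpl22l1 with Rpl22 turned on which Rpl22 probe set was read. Rpl22l1 had oocyte values of 381, 482, 395 and 495, 1-cell values of 35.3, 33.7, 38.3 and 52.9, 2-cell values of 85.4, 66.6, 143 and 77.2, 8-cell values of 661, 963, 702 and 826 and blastocyst values of 1297, 859.9, 881 and 1098. It fell by 3.11 ± 0.20 at the 1-cell stage and rose by 0.98 ± 0.20 at the 2-cell stage. Its change was below that of Rpl22 by 1.47 ± 0.13 at the 1-cell stage (exact permutation p = 0.0286), and by 3.54 with the other Rpl22 probe set. At the 2-cell relative to the 1-cell stage the difference was -0.998 with the brighter probe set and 2.81 with the other, and in the blastocyst over the oocyte -2.21 and 0.08, so the direction was not settled there.

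**Figure D4:**
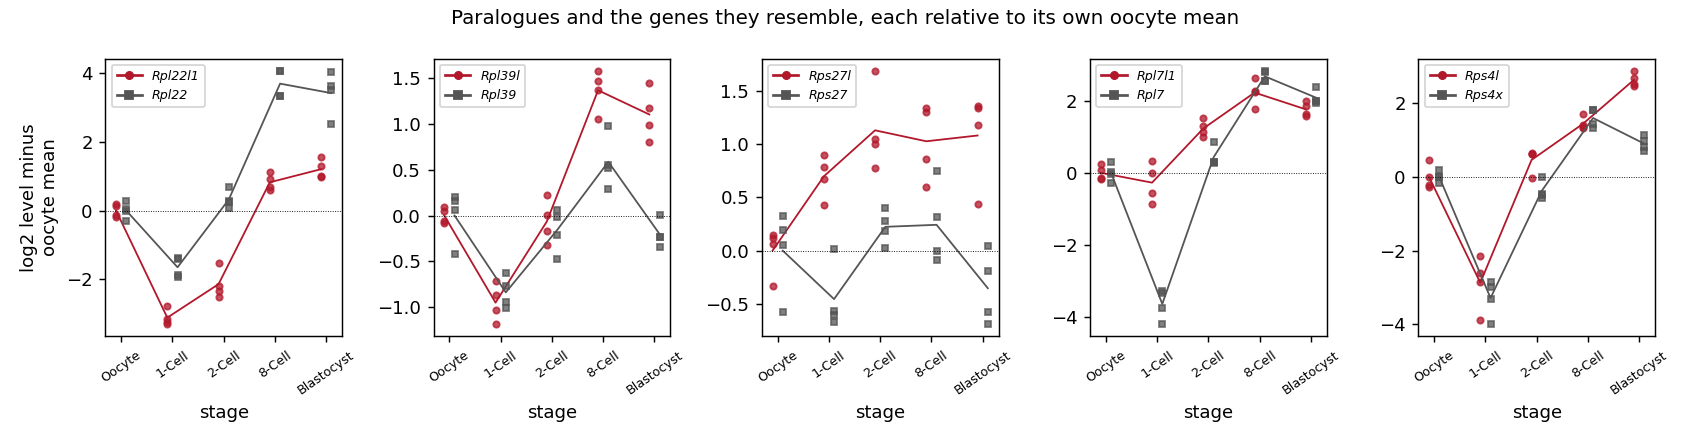
Log2 level of each paralogue and of the gene it resembles on every array, minus that gene's own oocyte mean, in 5 panels with stages in developmental order (red circles paralogue, grey squares the gene it resembles, lines join stage means, dotted line at 0). At the 1-cell stage Rpl7l1 stands at -0.27 and Rpl7 at -3.64, and in the blastocyst Rps4l stands at 2.64 and Rps4x at 0.90.

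Different probe sets of a gene did not always carry the same call. Of the 20 genes with several tested probe sets, 10 had all of them called one way at the 1-cell stage, 8 had some called, 1 none and 1 called both ways. At the 2-cell stage these counts were 12, 5, 2 and 1, and at the 8-cell stage 13, 6, 1 and 0. Rpl13a, a large-subunit protein that in human cells also takes part in interferon-induced translational silencing, was the gene called both ways at the 1-cell stage. Its brightest probe set had 1-cell values of 324, 382, 353 and 295, against 1415, 1352, 1289 and 1838 in oocytes. Another had 1-cell values of 884, 649, 800.4 and 512, against 319, 348, 335 and 492 in oocytes. The first was lower and the second higher in every 1-cell array, with changes over its 4 probe sets from -2.08 to 0.90. Rpl22 was called both ways at the 2-cell stage. Its second probe set, which other transcripts may share, had 2-cell values of 60.5, 55.2, 51.5 and 43.8, against 216, 232, 242 and 185 at the 1-cell stage, and a change of -1.83, beside 1.97 for the first.

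Other genes of the ribosome and of translation were counted from lists of the pathway. Over all 10257 genes, 15.2% rose and 16.6% fell at the 1-cell stage over the oocyte, 22% and 22.7% at the 2-cell over the 1-cell stage, 22.2% and 25.7% at the 8-cell over the 2-cell stage, and 20% and 26.4% in the blastocyst over the 8-cell stage. Fau, which encodes a small-subunit protein as a fusion, was the only ribosomal protein gene of another name with a probe set of its own. It had no call at the 1-cell (-0.34) or 2-cell stage (0.18) and rose by 2.04 at the 8-cell relative to the 2-cell stage. Of 18 elongation factor and other TOP genes, 9 fell and 4 rose at the 1-cell stage (median -0.56), 8 rose and 2 fell at the 2-cell stage (0.44), 17 rose at the 8-cell stage (1.32) and 8 fell and 1 rose in the blastocyst (-0.24). The corresponding medians of the ribosomal protein genes were -2.08, 2.31, 1.93 and -0.51. Eef2, the translocation factor, fell by 0.92 at the 1-cell stage and rose by 1.97 and 1.69 at the 2-cell and 8-cell stages. Eif3l and Eif3f, initiation factor subunits, fell by 2.51 and 2.39 at the 1-cell stage, while Eif3e rose by 0.59 there and fell by 1.41 at the 2-cell stage. Of 10 regulators of these mRNAs, 4 rose and 2 fell at the 2-cell stage. Larp1, which binds the TOP motif, rose by 3.07 at the 2-cell relative to the 1-cell stage. Mtor, the kinase upstream of it, fell by 0.90 at the 2-cell and by 1.06 at the 8-cell stage.

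Most ribosome assembly factors rose at the 2-cell stage. Of 43 genes, 31 rose and 4 fell there relative to the 1-cell stage (median 1.32), after 16 had fallen and 4 risen in 1-cell embryos (-0.33). Of the same genes 19 rose and 5 fell at the 8-cell stage (0.41), and 27 fell in the blastocyst relative to the 8-cell stage (-0.60). Relative to the oocyte, 24 rose and 7 fell in the blastocyst (0.67), where 26.2% of all genes rose and 33.6% fell. Nop16, a nucleolar protein, rose by 4.21 at the 2-cell stage, and Sbds, which acts late in large-subunit maturation, fell by 1.68. Tsr2, an escort of Rps26 known from yeast, rose by 3.31 at the 8-cell stage and fell by 2.24 in the blastocyst. The proteins of the mitochondrial ribosome, which translates the few mRNAs of the mitochondrial genome, had calls in both directions at the 2-cell stage. Of 74 genes, 49 fell and 3 rose at the 1-cell stage (median -1.01), and at the 2-cell relative to the 1-cell stage 27 rose and 24 fell (0.09). Relative to the oocyte, 47 were lower at the 2-cell stage and 10 higher (-0.92), where 23.3% of all genes were lower and 22.1% higher. They rose at the 8-cell stage in 51 of 74 (0.97), and in the blastocyst 22 rose and 7 fell (0.22). Mrpl11 was 3.20 below its oocyte level at the 2-cell stage and rose by 3.14 at the 8-cell stage.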

How the data were processed

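The authors deposited a linear probe-set intensity per array, from total RNA amplified in 2 rounds of in vitro transcription, per the labels. The deposited intensities share 1 trimmed mean, 150.05 to 150.08 on every array with 2% trimmed at each end. Background correction, detection calls and the software are not named in the sources used here. Symbols came from the platform annotation, updated through gene identifiers.

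Stages were taken from the titles, which name no batch. Intensities were transformed as log2(value + 12.15); the pooled median was 48.6. After leaving out 64 controls, 17208 of 22626 probe sets were tested, those that exceeded 32.9 on 4 or more arrays (percentile 40 of all values), with limma 3.58.1 in R 4.3.3 (lmFit, eBayes with trend, all 5 stages in 1 model, 15 residual degrees of freedom), with Benjamini-Hochberg adjustment in each of 6 comparisons. The tests ran as two-sided. Calls need an adjusted p under 0.05. The procedure was tested on simulated data. Exact permutation tests compared paralogue pairs.

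The text names, per comparison, the 5 largest called rises and falls without overlap between stages, called genes against the main direction, members with known roles, paralogues and genes whose probe sets disagree. Members, lists and rules were chosen with earlier results of these data known. Alternatives changed the scaling, pseudocount, filter, probe sets, fit, replicate block and arrays used.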

Additional observations from a re-analysis of the deposited data

Results flagged for a closer look

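In 11 of 175 groups of 4 arrays, 1 array stood apart from the other 3. Chance flags about 1 in 20 groups. At the 2-cell stage, array 3 read 135.4 for Rpl27a, with the nearest other array at 53.7, 1971.6 for Rpl7, with the nearest at 1351.1, and 2273.9 for Rpl7a, with the nearest at 1778.5. In the same stage Rps4l read 260 on array 1, below the next value of 416.3. Oocyte array 4 read 2043.1 for Rplp0, with the nearest at 1552.3, and it also had the highest median intensity of the ribosomal protein probe sets, 755.3 beside 649.2, and the highest share of the summed signal, 2.31% beside 1.83%. At the 1-cell stage, array 1 read 108 for Rps27, with the nearest at 67.8, and array 2 read 72.3 for Rpsa, below the next value of 97.9. The 8-cell array 3 read 4937.7 for Rpl8, below the next value of 5930.6, and blastocyst array 2 read 5787.6 for Rpl7, above the next value of 4413.9.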

How the results depend on the processing

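The falls at the 1-cell stage and the rises at the 2-cell stage, the 8-cell stage and in the blastocyst over the oocyte kept their direction in every alternative run, and the cause of the changes listed here was not tested except where fewer probe sets were counted. Counts below are of the 93 probe sets, as higher, lower and median log2 change. With 1 probe set per gene, 48 in all, they were 1, 40 and -2.08 for the 1-cell stage over the oocyte, 44 and 1 for the 2-cell over the 1-cell stage, 45 higher for the 8-cell over the 2-cell stage, 1 and 25 for the blastocyst over the 8-cell stage, and, over the oocyte, 18 and 5 at the 2-cell stage and 43 higher in the blastocyst. Without probe sets ending _x_at or _s_at they were 2, 37 and -1.34 at the 1-cell stage, 44, 0 and 1.96 at the 2-cell stage, 44 higher at the 8-cell stage, 19 lower in the blastocyst over the 8-cell stage, and, over the oocyte, 21 and 4 at the 2-cell stage and 45 higher with 1.94 in the blastocyst. Scaling to the hybridization controls gave 0 higher and -2.76 at the 1-cell stage, 3 lower and 1.22 at the 8-cell stage, 35 higher, 1 lower and 0.53 in the blastocyst over the 8-cell stage, and, over the oocyte, 11, 36 and -0.45 at the 2-cell stage and 1 lower and 1.51 in the blastocyst. That scaling moved the median of all probe sets to -0.69, 0.12, -0.41 and 0.68 at the 4 steps in order. Among changes called under either scaling, it turned those of Rps27l at the 1-cell stage (-0.30) and of Rps3 at the 2-cell stage over the oocyte (-0.072), and in the blastocyst over the 8-cell stage those of Rps7 (0.19), Rps29 (0.19), Rplp0 (0.38), Rplp2 (0.81), Rpsa (0.80), Rps3 (0.36), Rpl11 (0.82), Rpl22 (0.85), Rpl39l (0.86), Rpl39 (0.26), Rps27 (0.41), Rpl7 (0.53) and Rps4x (0.43), and it turned 8 more that were called under neither. Quantile normalization gave 2 lower and 1.19 at the 8-cell stage, and 12 lower and -0.12 in the blastocyst over the 8-cell stage, and centring on the array median 22 lower there. The pseudocount of 48.6 gave a median of -1.63 at the 1-cell stage, one of 1.95 at the 2-cell stage and 19 called paralogue tests in place of 0. Without a filter the 1-cell median was -1.53. With the stricter filter it was -2.03, and no probe set was called lower at the 8-cell stage (0 in limma). The replicate numbers were fitted as a block, although arrays of the same number did not deviate together (correlations of -0.16 to 0.178 over 40 pairs, 5 of 20 arrays closest to their own number): the replicate block gave 2 lower at the 8-cell stage and otherwise left the counts within 1.5 times. With single arrays left out, the counts ran from 2 to 5 higher and 69 to 72 lower at the 1-cell stage (medians -1.90 to -1.70), 77 to 79 and 2 to 3 at the 2-cell stage, 78 to 81 and 1 to 2 at the 8-cell stage, 33 to 55 lower in the blastocyst over the 8-cell stage, and, over the oocyte, 31 to 39 and 8 to 10 at the 2-cell stage and 78 to 80 and 0 to 1 in the blastocyst. Values under the filter raised to it, an alternative chosen after seeing the data, left the counts within 1.5 times and ended the call of Rpl3l in the blastocyst over the 8-cell stage. For the named genes, 2468 of the recomputed values kept direction and call, 37 lost a call, 21 gained one, 15 turned with a call under one of the settings and 30 turned with a call under neither. Signal over background limits the dim members, such as Rps6, Rps27, Rpl3l and Rpl14.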
